A study of Mus musculus with 6 samples.

Results

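Genes of cholesterol and isoprenoid synthesis were examined in RNA-seq of the medial ganglionic eminence (MGE), the part of the embryonic ventral forebrain that produces many cortical interneurons, at embryonic day 12.5 in Sp9-/- mice and wild type littermates. The set holds 28 genes, taken by gene symbol from the deposited table of 34745 genes, and all 28 were among the 14929 genes with enough counts to be tested. There were 3 libraries of Sp9-/- tissue (Sp9 null) and 3 of wild type tissue, each of whole dissected MGE on a mixed C57BL/6J, 129S6 and CD1 background with no other treatment in the labels. The labels do not say whether a library held 1 embryo or several, nor which sex it was, and p-values measure only the spread between these libraries, which may be technical. Because the tissue is bulk, fewer cells of a type and less RNA per cell cannot be told apart.

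Cells build cholesterol from acetyl-CoA through the mevalonate pathway, which first makes isopentenyl diphosphate and its isomer dimethylallyl diphosphate, the building blocks of all isoprenoids. Farnesyl diphosphate is the branch point: it supplies geranylgeranyl groups, dolichol and ubiquinone, or is joined head to head into squalene, which is closed into lanosterol and trimmed to cholesterol. The transcription factor SREBP2 (gene Srebf2) drives most of these genes when sterols in the endoplasmic reticulum are low, and the developing brain, once its blood-brain barrier has formed, makes most of its own cholesterol.

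The isomerase step, which interconverts isopentenyl and dimethylallyl diphosphate, is carried by a pair of neighbouring genes, Idi1 and Idi2. Idi1 is the general isomerase gene; in human, IDI2 transcripts are best known from skeletal muscle. In the files Idi1 (ENSMUSG00000058258) lies at chr13:8885501-8892451 and Idi2 (ENSMUSG00000033520) at chr13:8952863-8960945, both on the plus strand of GRCm38 and 60412 bases apart. Between them, 4632 bases from Idi2 and on the minus strand, lies Gm9745 (ENSMUSG00000021148, chr13:8941575-8948231), to which the files give no function. The following 90-base windows of coding sequence from the GENCODE M21 transcripts, 5′ to 3′ in the sense of each transcript, show why reads of Idi2 can be told from Idi1 but often not from Gm9745. Capitals mark the 20 bases of Idi1 that differ from Idi2; the windows lie at chr13:8956856-8956945 (Idi2, plus strand), chr13:8944166-8944255 (Gm9745, minus strand) and chr13:8886808-8886897 (Idi1, plus strand).
Idi2: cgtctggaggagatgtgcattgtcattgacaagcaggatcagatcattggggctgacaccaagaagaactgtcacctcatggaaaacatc
Gm9745: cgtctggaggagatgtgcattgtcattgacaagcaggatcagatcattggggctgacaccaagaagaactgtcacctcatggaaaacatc
Idi1: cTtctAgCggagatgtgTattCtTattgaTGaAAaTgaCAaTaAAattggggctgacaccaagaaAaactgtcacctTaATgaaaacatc
Over the 681 coding bases of Idi2, 677 (99.4%) were identical in Gm9745, with an identical run of 318 bases, whereas 447 (65.6%) were identical in Idi1 and the longest identical run was 20 bases. Of all 50-base stretches of Idi2 transcripts, 27.6% also occur in another annotated gene, and Gm9745 was the single gene that held them. Idi1 shares 25.3% of its stretches with other genes, so its level is uncertain, but none of these genes is Idi2.

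The stretches before the starts of both isomerase genes were also read (RefSeq, GRCm38.p6, plus strand, the 250 bases before the RefSeq start). They were searched on both strands, together with the 50 bases after the start, for the sterol regulatory element TCACNCCAC, the CCAAT box (CCAAT) and the GC box (GGGCGG). These are the kinds of site known from promoters of sterol synthesis genes; ATTGG and CCGCCC are the last 2 as read on the minus strand, and no match printed here overlaps another. Capitals mark every match. The Hmgcs1 stretch, which holds all 3 kinds, is shown for comparison. The stretches lie at chr13:8952613-8952862 (Idi2), chr13:8885356-8885605 (Idi1) and chr13:119690101-119690350 (Hmgcs1). The Idi1 stretch runs past the gene start given above, 8885501, and its 3 matches lie beyond that base. The Idi2 stretch ends just before the gene start given above, so the 2 are not placed alike.
Idi2: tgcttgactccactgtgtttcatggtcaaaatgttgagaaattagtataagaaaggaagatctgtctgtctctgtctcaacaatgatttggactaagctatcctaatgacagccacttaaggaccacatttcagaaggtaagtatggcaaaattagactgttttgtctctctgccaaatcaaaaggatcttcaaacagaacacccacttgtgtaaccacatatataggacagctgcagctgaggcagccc
Idi1: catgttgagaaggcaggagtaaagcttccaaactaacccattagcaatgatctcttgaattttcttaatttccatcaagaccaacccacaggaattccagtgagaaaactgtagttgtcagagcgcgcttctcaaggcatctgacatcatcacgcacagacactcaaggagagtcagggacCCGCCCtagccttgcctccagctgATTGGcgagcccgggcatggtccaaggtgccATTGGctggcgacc
Hmgcs1: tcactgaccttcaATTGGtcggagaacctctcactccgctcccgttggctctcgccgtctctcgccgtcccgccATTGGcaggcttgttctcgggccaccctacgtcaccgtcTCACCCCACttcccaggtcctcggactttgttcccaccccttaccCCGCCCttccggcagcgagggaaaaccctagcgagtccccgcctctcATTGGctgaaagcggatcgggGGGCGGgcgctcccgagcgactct
Of the 28 genes, 23 matched an entry of the promoter table. A gene was taken to hold a motif when any of its windows of 300 bases did, so genes with several windows had more chances. CCAAT was present in 19 of these 23 genes (82.6%), against 41.1% of all 27025 genes with a window. GGGCGG was present in 20 of 23 (87.0%), against 38.2% of all, and TCACNCCAC in 1 of 23, Hmgcs1, against 1.44% of all. Idi2 was the 1 gene of the 23 with none of the 3 motifs in its window, and 36.1% of all 27025 genes likewise held none. The absence says only that these letters are not in this window.

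Library totals ran between 6826447 and 10979280 counts in Sp9 null MGE and between 9536050 and 10914147 in wild type MGE. Sp9 itself, a zinc finger transcription factor gene, had 89, 116 and 118 counts in the 3 Sp9 null libraries, against 1939, 2700 and 1870 in wild type libraries. Its counts fit the labelled genotype in every library. The replicate numbers carried a shared difference: replicate 2 of both genotypes stood apart from the other libraries on the first principal component (51.8% of the variance), and the genotypes separated on the second (23.1%). Genotype was therefore tested in edgeR both without and with the replicate number as a block. The fit without the block called 22 of 14929 genes (0.147%) at an adjusted p under 0.05, and the blocked fit called 597 (4.0%).

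Idi2 stood out from the other 27 genes. The libraries of Sp9 null MGE held 18, 22 and 19 Idi2 counts, against 1, 2 and 1 in wild type MGE. In CPM (counts scaled to the library total) this is 2.64, 2.0 and 2.01 in Sp9 null libraries, against 0.105, 0.183 and 0.101 in wild type libraries. Every Sp9 null library was above every wild type library, while the level in both genotypes was low. Summed over libraries and scaled to depth, 59 counts in Sp9 null against 4 in wild type give a ratio of 16.4, with an exact 95% interval of 6.09 to 62.3 that covers counting error only. The fitted log2 fold change was 3.96 (SE 0.47; adjusted p = 0.0224 without the block and 2.4e-05 with it), the largest positive value of the 14929 genes tested. Log2 fold changes of that size in either direction occurred in 26 genes (0.174%). Some of these were markers of stomach and exocrine pancreas, described below, of which 14 were tested with a median log2 fold change of -8.52. Each SE printed here is the absolute log2 fold change divided by the square root of the F statistic of its test. For Idi2, and for its sum with Gm9745 below, that SE is tighter than counting error alone. Their exact intervals therefore describe the precision better. Since wild type libraries held so few counts, Idi2 entered the test only through its Sp9 null counts. Without the block, the call did not survive the loss of wild type replicate 1, 2 or 3 or of Sp9 null replicate 1 or 3 (adjusted p between 0.104 and 0.243, log2 fold changes between 3.81 and 4.27), and it remained without Sp9 null replicate 2 (adjusted p = 0.0355); with the block it remained whichever replicate number was left out.

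Gm9745, the near-identical copy, was counted far less often. It had 3, 5 and 6 counts in Sp9 null libraries, against 0, 1 and 1 in wild type libraries. The genotypes did not overlap, and the depth-scaled ratio of 14 counts in Sp9 null to 2 in wild type was 7.80 (exact 95% interval 1.79 to 70.8). It was too low to enter the test; fitted with no expression filter, its log2 fold change was 2.76 (SE 0.98; adjusted p = 0.799 unblocked and 0.285 blocked). Of its 50-base stretches, 75.2% also occur in Idi2, so counts of the pair could have been split between them, and the sources used here do not say how reads that match both were counted. Adding both genes together, an alternative chosen after seeing the data, gave 73 counts in Sp9 null against 6 in wild type, a ratio of 13.6 (5.94 to 38.2), and a fitted log2 difference of 3.72 with SE 0.43 (adjusted p = 0.0183). The summed pair was thus called as Idi2 alone was. Idi2 gave 59 of those 73 counts and 4 of those 6, so the sum could hardly differ from Idi2. It does not show which copy the shared reads came from.

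**Figure D1:**
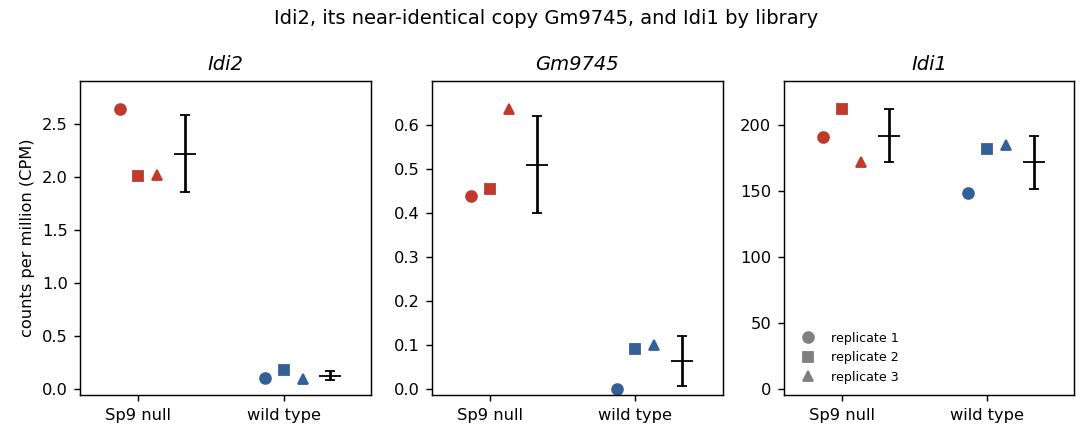
CPM (linear axes, each panel with its own scale) of Idi2, Gm9745 and Idi1 in each library, with Sp9 null in red, wild type in blue and a marker shape per replicate number; black bars give the mean and SD of 3 libraries. The 3 Sp9 null libraries lie above the 3 wild type libraries for Idi2 and Gm9745, at levels far below those of Idi1, whose genotypes overlap.

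Idi1, the neighbour that encodes the same activity, did not pass the test. It had 1305, 2327 and 1620 counts in Sp9 null libraries, against 1417, 1981 and 1836 in wild type libraries. In FPKM (counts scaled to gene length and library total), Idi1 stood at 39.8, 44.2 and 35.8 FPKM in Sp9 null MGE, against 31.0, 37.8 and 38.6 FPKM in wild type MGE. The genotypes overlapped, and the log2 fold change was 0.18 (SE 0.12; adjusted p = 0.897, and 0.169 with the block). On the same FPKM scale Idi2 averaged 0.985 ± 0.161 in Sp9 null and 0.0575 ± 0.0206 in wild type (SD, n = 3 each). Taken within each library, which removes any effect of library scaling, Idi2 made up 1.36%, 0.937% and 1.16% of the summed Idi1 and Idi2 counts in Sp9 null libraries, against 0.0705%, 0.101% and 0.0544% in wild type libraries. The lowest Wilson 95% bound in Sp9 null was 0.619% and the highest in wild type was 0.398%. The mean share was 1.15 ± 0.212% in Sp9 null and 0.0753 ± 0.0236% in wild type (SD, n = 3 each), a difference of 1.08 percentage points (two-sided exact permutation test, p = 0.1, the smallest that 3 against 3 can give). Even in Sp9 null MGE, nearly all counts of the pair were therefore Idi1. Since Idi1 counts were alike (5252 summed over Sp9 null libraries, 5234 over wild type), the shares restate the Idi2 counts above. They are not separate evidence of a difference in Idi2.

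No other tested gene around Idi2 was called with or without the block. Gm9745, also higher in Sp9 null as given above, and Gm26601 were too low to be tested. The table holds 9 genes, Idi2 included, within 500 kb of it. Gtpbp4, a GTP-binding protein of ribosome assembly whose gene lies 11126 bases away, had 31.1, 31.6 and 31.0 FPKM in Sp9 null libraries, against 28.9, 29.3 and 29.0 FPKM in wild type libraries. Those groups did not overlap, but the log2 fold change of 0.13 (SE 0.07) missed the threshold (adjusted p = 0.897, and 0.343 with the block). Larp4b, an RNA-binding protein gene, and Wdr37, a WD-repeat protein gene, each had a log2 fold change of 0.09, and Dip2c had -0.06. Adarb2, a brain member of the adenosine deaminase family that acts on RNA, varied most by replicate, with 309, 153 and 688 counts in Sp9 null libraries, against 497, 136 and 565 in wild type libraries. Its log2 fold change was 0.14 (SE 0.77). Gm26601 had at most 1 count in any library.

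Levels of the pathway differed widely between genes and little between genotypes. Apart from Idi2 and Fdps, every gene of the set lay between 1.07 and 214 FPKM in every library. In 25 of the 28 genes (89.3%) the absolute log2 fold change was under 0.25, that is, less than 1.19-fold either way, against 78.4% of all genes tested. The median log2 fold change was -0.02 over the 28 genes and -0.0046 over all genes tested. Idi2 was the 1 gene of the 28 called in the unblocked fit, where 0.0469% of all genes tested were called higher. The blocked fit called 3, all higher (Idi2, Msmo1 and Hmgcs1), where 2.22% of all genes tested were called higher and 1.78% lower. Before adjustment, 4 of the 28 had p under 0.05 in the unblocked fit (5.91% of all genes tested) and 5 in the blocked fit (17.2%). The genes were chosen with earlier results of these data known, so counts that include Idi2 are not evidence about the set. Of the 27 genes without Idi2, 0 were called unblocked and 2 blocked. Before adjustment, 3 of the 27 had p under 0.05 unblocked and 4 blocked. In 5 of the 28 the genotypes did not overlap (Idi2 and Msmo1 higher in Sp9 null; Ebp, Srebf2 and Scap lower), where 13% of all genes tested did not overlap.

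**Figure D2:**
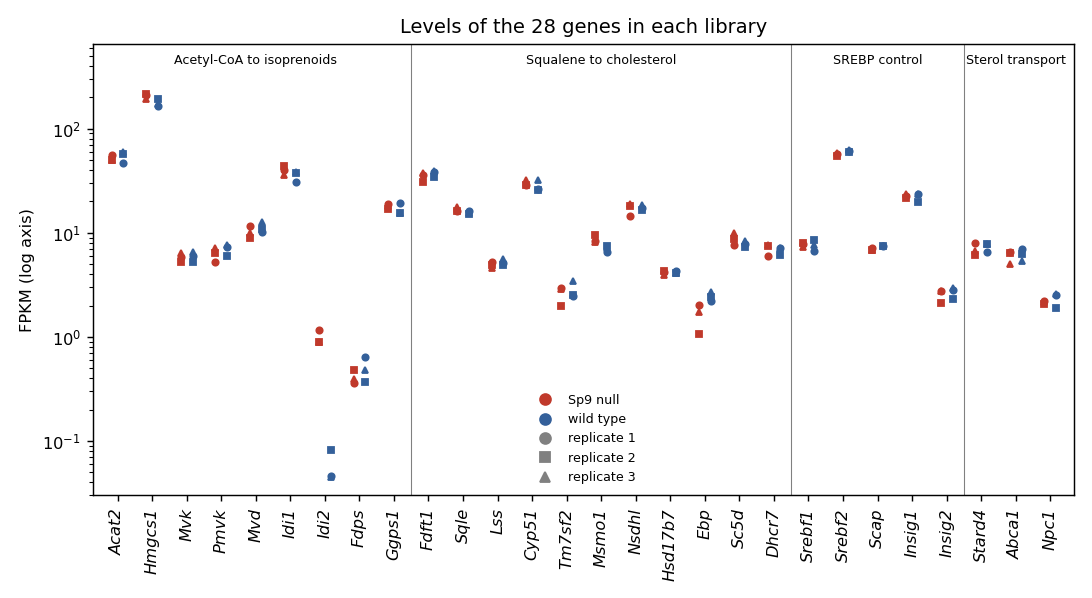
Deposited FPKM (log axis) of the 28 genes in each library, ordered by step of the pathway, with Sp9 null in red to the left, wild type in blue to the right and a marker shape per replicate number. Hmgcs1 is the highest, between 164 and 214 FPKM over all libraries, and Idi2 is the gene whose genotypes stand far apart.

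Of the 9 genes that lead from acetyl-CoA to the isoprenoid diphosphates, the unblocked fit called Idi2 and the blocked fit 2, Idi2 and Hmgcs1. Over all genes tested, 0.0469% were called higher unblocked and 2.22% blocked. Hmgcs1, the cytosolic HMG-CoA synthase, was the most abundant of the whole set. It had 212, 214 and 191 FPKM in Sp9 null libraries, against 164, 194 and 172 FPKM in wild type libraries. The ranges overlap, since wild type replicate 2 exceeded Sp9 null replicate 3, while within each replicate number Sp9 null was the higher. The log2 fold change was 0.24 (SE 0.09; adjusted p = 0.801) without the block and 0.24 (SE 0.06; adjusted p = 0.0143) with it, a fold of 1.18. That call was lost in the blocked fit when replicate 2 or replicate 3 was left out. Hmgcs1 shares 11.6% of its 50-base stretches with other genes, 464 of these 537 with Gm48342, which was not analysed here.

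The remaining genes of this stretch were not called in either fit. Acat2, the cytosolic thiolase that joins acetyl-CoA units, had log2 fold change -0.06 (SE 0.10), from 49.4 to 56.2 FPKM in Sp9 null libraries, against 47.0 to 59.3 FPKM in wild type libraries. It shares 39.1% of its stretches with its paralog Acat3 and 11.2% with Tcp1, so its level is uncertain. The mevalonate kinase gene Mvk (-0.01, SE 0.12), the phosphomevalonate kinase gene Pmvk (-0.12, SE 0.16) and the mevalonate diphosphate decarboxylase gene Mvd (-0.13, SE 0.14) carry the steps just before the isomerases, and their log2 fold changes were all smaller than their SE. Mvk had 5.24 to 6.37 FPKM in Sp9 null libraries and 5.29 to 6.59 in wild type libraries, and the difference of its means lay within the spread between libraries. Ggps1, which makes geranylgeranyl diphosphate, had a log2 fold change of 0.13 (SE 0.11). Fdps, which makes farnesyl diphosphate, was listed at only 0.36, 0.48 and 0.39 FPKM in Sp9 null libraries, against 0.645, 0.37 and 0.478 FPKM in wild type libraries. Its log2 fold change was -0.24 (SE 0.31). Of its 50-base stretches 26.2% also occur in other genes, 23.4% in the overlapping Gm43738, so its deposited level is uncertain and is not set beside those of the other enzymes.

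Of the 11 genes from squalene to cholesterol, the unblocked fit called none and the blocked fit 1, Msmo1, where 2.22% of all genes tested were called higher. Msmo1 and Ebp were the 2 with p under 0.05 before adjustment, in both fits. Over all genes tested, 5.91% had such a p unblocked and 17.2% blocked. Msmo1, the methylsterol monooxygenase that begins the removal of the C4 methyl groups, had 8.26, 9.51 and 8.24 FPKM in Sp9 null libraries, against 6.54, 7.44 and 7.17 FPKM in wild type libraries. Each Sp9 null library exceeded all wild type libraries. The log2 fold change was 0.32 (SE 0.10; adjusted p = 0.644) without the block and 0.32 (SE 0.07; adjusted p = 0.00574) with it, a fold of 1.25. The blocked call was lost when replicate 2 was left out and when DESeq2 was used in place of edgeR.

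Ebp, the sterol isomerase that moves the double bond within the ring system, had the largest negative log2 fold change of the set. It had 49, 42 and 58 counts in Sp9 null libraries, against 75, 95 and 96 in wild type libraries. Per length and depth this is 2.01, 1.07 and 1.72 FPKM in Sp9 null, against 2.20, 2.44 and 2.71 FPKM in wild type. The genotypes did not overlap, and Sp9 null replicate 2 was the lowest by far. The log2 fold change of -0.61 (SE 0.24) was not called (adjusted p = 0.804), nor was that of -0.64 (SE 0.20) with the block (adjusted p = 0.0703). Without Sp9 null replicate 2 the value was -0.39 (SE 0.21; adjusted p = 0.719), and in the blocked fit without replicate 2 it was also -0.39 (adjusted p = 0.604). It was called lower in the blocked fit without the expression filter (adjusted p = 0.0421) and in the blocked fit without replicate 1 (adjusted p = 0.0138, log2 fold change -0.87).

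The other 9 genes of this stretch had absolute log2 fold changes of 0.20 or less, none called in either fit. Fdft1, squalene synthase, had a log2 fold change of -0.08 (SE 0.10). Of its 50-base stretches 26.5% also occur in other genes, 17.2% in Ctsb, so its level is uncertain. Fdft1 overlaps Ctsb on the opposite strand, and the sources used here do not say whether counting used strand. The same holds for Ggps1, Lss, Cyp51, Srebf1, Scap, Insig2 and Npc1, each of which overlaps a counted gene on the opposite strand, and Tm7sf2 overlaps Vps51 on the same strand. Sqle, squalene epoxidase, had 0.12 (SE 0.08) and Lss, which closes the ring to lanosterol, had -0.08 (SE 0.08). The demethylation genes gave 0.11 (SE 0.11) for Cyp51, 0.00 (SE 0.12) for Nsdhl and 0.01 (SE 0.11) for Hsd17b7. Tm7sf2, a sterol reductase, had a log2 fold change of -0.09 (SE 0.19). The last steps are carried by Sc5d, a desaturase, with 0.20 (SE 0.13), and Dhcr7, the reductase that makes cholesterol from 7-dehydrocholesterol, with 0.08 (SE 0.13). Enzymes of consecutive steps thus gave log2 fold changes on both sides of 0, and the 11 had a median of 0.01.

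**Figure D3:**
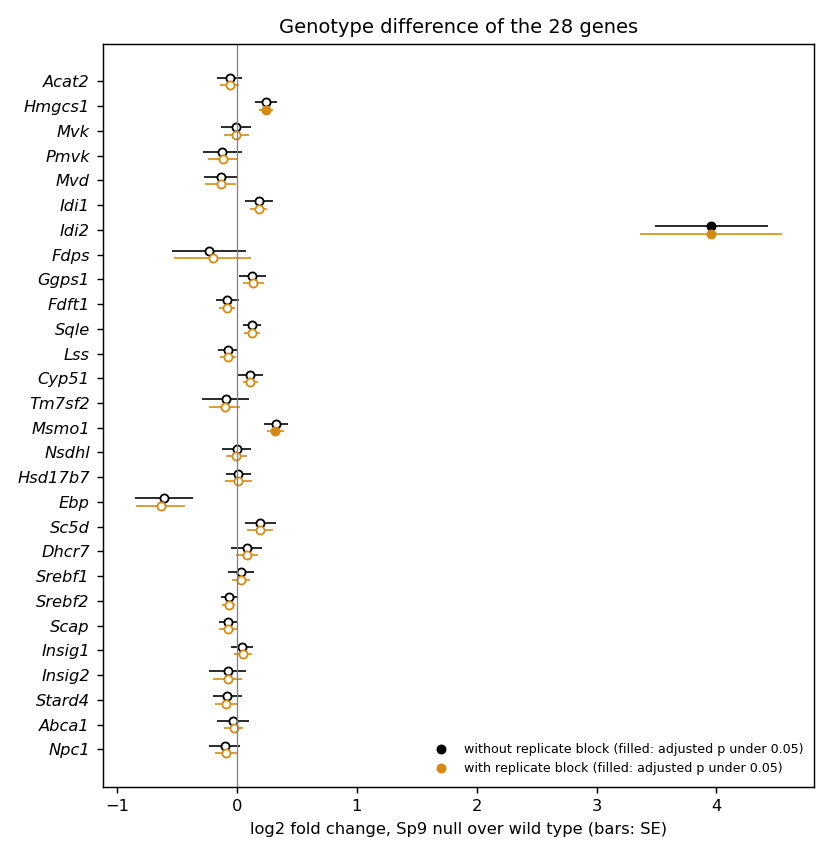
Log2 fold change of each gene, Sp9 null over wild type, without the replicate block (black) and with it (orange). Bars give the SE derived from the F statistic, which for Idi2 is tighter than counting error. Filled points have an adjusted p under 0.05. Idi2 is near 4 in both fits, Hmgcs1 and Msmo1 are called only with the block, and the other genes lie between -0.64 and 0.20.

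None of the 5 genes that control the pathway was called in either fit. Srebf2 had 57.4, 54.5 and 58.5 FPKM in Sp9 null libraries, against 60.7, 59.1 and 61.8 FPKM in wild type libraries. The genotypes did not overlap, but the log2 fold change was only -0.07 (SE 0.07; adjusted p = 0.932). Scap, which escorts SREBPs from the endoplasmic reticulum to the Golgi, had 7.20, 6.83 and 6.82 FPKM in Sp9 null libraries, against 7.44, 7.39 and 7.45 FPKM in wild type libraries. Those groups also did not overlap; the fitted log2 difference was -0.08 with SE 0.07 (adjusted p = 0.936). Scap overlaps 5830462I19Rik, with 1105 counts over all libraries, on the opposite strand. Srebf1, whose products act mostly on fatty acid genes, had 0.03 (SE 0.10). Insig1 and Insig2, which hold the SREBP and SCAP complex back when sterols are plentiful, had 0.04 (SE 0.09) and -0.08 (SE 0.15). Insig1 is itself a target of SREBP2; it had 21.5 to 23.5 FPKM in Sp9 null libraries and 19.7 to 23.4 FPKM in wild type libraries.

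The 3 genes of sterol transport were not called either. Stard4, a soluble sterol carrier, had a log2 fold change of -0.08 (SE 0.12). Abca1, which exports cholesterol to lipoproteins, had -0.03 (SE 0.13), and Npc1, which lets cholesterol leave lysosomes, had -0.10 (SE 0.13). Their FPKM ranges overlapped between genotypes.

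In some genes of the set replicate 2 stood apart in both genotypes, though no more often than over all genes tested. In 3 of the 28 genes (Hmgcs1, Msmo1 and Srebf1) replicate 2 was the highest library in both genotypes, and in 7 (Mvk, Ggps1, Fdft1, Srebf2, Insig1, Insig2 and Npc1) it was the lowest in both, where 22.5% and 28.4% of all genes tested did so. Insig2 showed the pattern plainly, with 2.77, 2.09 and 2.76 FPKM in Sp9 null replicates 1, 2 and 3 and 2.84, 2.33 and 2.97 FPKM in the same wild type replicates. Abca1 went with another library: replicate 3 was the lowest in both genotypes, at 5.05 FPKM in Sp9 null and 5.36 FPKM in wild type. Markers of cortical excitatory neurons were also lowest in replicate 2 of both genotypes, summing to 27.1, 1.73 and 47.9 CPM in Sp9 null replicates 1, 2 and 3 and to 17.2, 1.37 and 23.9 CPM in the same wild type replicates. Within each number Sp9 null was the higher; of the 2 of these markers that were tested, none was called without the block and 1 was called higher with it. The ratio of the highest to the lowest library by CPM was 1.09 for Scap, 2.53 for Ebp and 26.2 for Idi2.

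**Figure D4:**
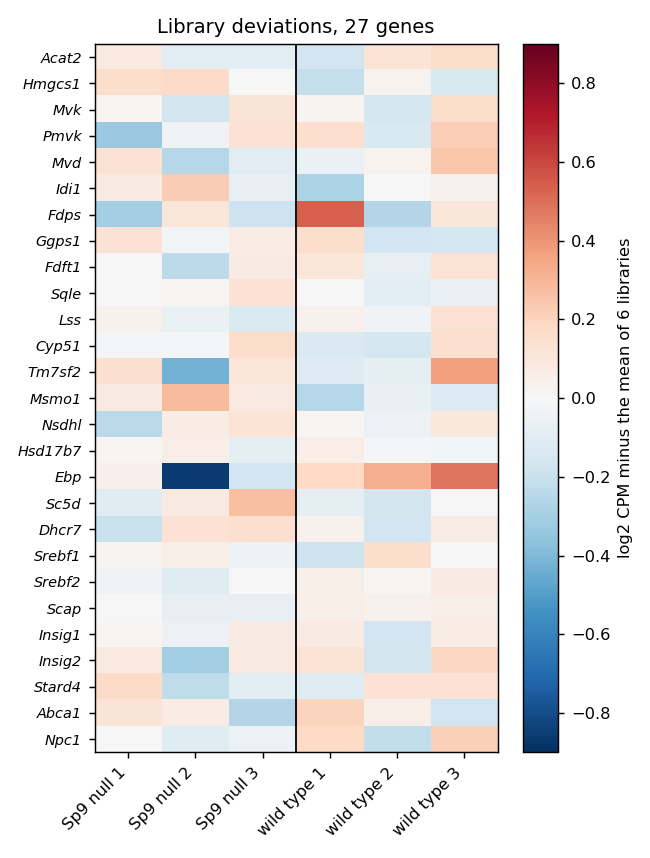
Log2 CPM of 27 genes (Idi2 left out) in each library minus the mean of the 6 libraries, red above and blue below that mean. The deviations are small next to the genotype difference of Idi2, the deepest being Ebp in Sp9 null replicate 2 at -0.86.

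Genes that work next to the pathway were listed from textbook knowledge in 5 groups, 76 genes in all, of which 70 were tested. Neither edgeR fit called any of them, nor did DESeq2. Before adjustment, edgeR's p was under 0.05 for 0 of the 70 in the unblocked fit and for 8 in the blocked fit. Over all genes tested the shares were 5.91% and 17.2%. For each group the pair with the largest absolute log2 fold changes is named, none of them called. Of 19 genes that use isoprenoids, the ubiquinone side-chain gene Pdss2 had -0.29 (SE 0.17) and the prenyl-protein methyltransferase gene Icmt -0.23 (SE 0.12). Of 10 genes of SREBP processing and sterol-regulated degradation, the ubiquitin ligase genes Rnf139 and Rnf145 had 0.12 (SE 0.10) and 0.09 (SE 0.07). Of 23 tested genes of sterol uptake, traffic and export, Tspo had 0.43 (SE 0.38) and the caveolin gene Cav1 0.40 (SE 0.32). Of 15 tested genes of fatty acid synthesis, the acetyl-CoA carboxylase gene Acacb had 0.52 (SE 0.43) and the desaturase gene Scd1 0.23 (SE 0.13). Of 3 tested genes of sterol turnover, the neuronal cholesterol hydroxylase gene Cyp46a1 had 0.39 (SE 0.29) and Hsd3b7 had 0.12 (SE 0.43). The medians of these groups lay between -0.01 and 0.12.

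Markers of other cell types were counted in the same libraries. Markers of skeletal muscle, the tissue from which human IDI2 is best known, summed to 3.29 to 6.01 CPM in Sp9 null libraries and 3.57 to 5.31 CPM in wild type libraries, and Myod1 and Myog were at 0 counts in all libraries. Markers of MGE summed to 4748 to 4845 CPM in Sp9 null libraries and 4028 to 4242 CPM in wild type libraries, so markers of the labelled tissue were present in both. Those sums did not overlap, and of the 10 MGE markers 1 was called higher without the block, and 3 higher and 2 lower with it. Microglial markers summed to 26.2 to 37.4 CPM in Sp9 null, against 56.3 to 61.5 CPM in wild type. Of the 9 tested, 0 were called without the block and 6 were called lower with it. Markers of stomach and exocrine pancreas summed to 0.732 to 1.27 CPM in Sp9 null, against 103 to 130 CPM in wild type, with 9 of 14 tested called lower without the block and 14 with it; 12 of the 16 were at 0 in every Sp9 null library. Mitochondrial transcripts took 2.32%, 3.43% and 3.41% of counts in Sp9 null libraries, against 2.20%, 2.22% and 2.28% in wild type libraries. With the block, 2 of 10 erythroid markers were called higher and 1 of 6 of the oligodendrocyte lineage lower, and without it 0 of either list were called. The part of these differences, and of that in the cortical markers, in the values of the set was not tested.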

How the data were processed

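Reads were processed with TopHat and Cufflinks 2.1.1 on GRCm38.p4, per the submitters' processing notes; RNA selection, strandedness and the read counter are not stated there or in the labels. The deposited table gives a raw read count and an FPKM for each gene in each of 6 libraries (3 Sp9 null, 3 wild type). The FPKM deposited by the authors equalled count per fixed gene length and library total in 21180 of 21180 genes counted in 2 or more libraries (relative tolerance 0.001); the implied length can be long (18461 bases for Lss), which lowers levels per length.

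Counts were tested with edgeR 4.0.16 in R 4.3.3 (TMM, filterByExpr, robust quasi-likelihood, Benjamini-Hochberg over 14929 genes, two-sided, threshold 0.05), genotype only. Same-numbered libraries deviated together (correlations 0.34, 0.73 and 0.54), so the replicate block is printed beside results it changes. Sp9 null 3 with wild type 1 gave 0.35 and Sp9 null 1 with wild type 3 gave 0.23, so the correlations set replicate 2 apart but do not cleanly separate 1 from 3; the labels do not say what the numbers mark. DESeq2 1.42.0, other scaling, filters and left-out libraries were alternatives. Each SE is the absolute log2 fold change divided by the square root of the F statistic of edgeR's test. Intervals cover counting error only. All 28 genes were named; other genes by a size rule. The genes and lists were chosen with earlier results of these data known. Shared 50-base stretches and coding identity used GENCODE M21 transcripts; promoters came from RefSeq.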

Additional observations from a re-analysis of the deposited data

How the results depend on the processing

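The number of genes called depended on the fit far more than the log2 fold changes did. Over all genes it was 22 in the fit without a block, 65 with no expression filter, 84 with DESeq2, 597 with the replicate block, 163 with the block in DESeq2, 825 with the block and no filter, and 2 to 34 with 1 library left out; the block without replicate 1, 2 or 3 gave 1193, 126 and 219, and leaving out replicate 2 in both genotypes gave 89. Of the 28 genes, 1 was called without the block, 3 with it, also with Idi2 and Gm9745 summed, 2 with the block in DESeq2 (Idi2 and Hmgcs1), 4 with the block and no filter (Ebp lower added), and 0 to 1 with 1 library left out; the block without replicate 1 or 3 gave 5 (Acat2 and Ebp lower added) and 2. Among the other pathway genes 0 were called, except 3 (Pgrmc1, Scd1 and Icmt) with the block without replicate 1. The causes were not tested.

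In 14 of the 28 genes the log2 fold change took the other sign in at least 1 alternative; the largest such value was 0.11 in size and none was called. With the block and no replicate 2, the values were 0.0072 for Acat2, -0.039 for Hsd17b7, -0.051 for Dhcr7, -0.0073 for Insig1 and 0.033 for Stard4. With the block and no replicate 3, the values were 0.028 for Acat2, 0.0011 for Mvk and 0.0063 for Lss. Unblocked without replicate 2 in both genotypes, the values were 0.0027 for Acat2, -0.042 for Hsd17b7, -0.041 for Dhcr7, -0.0065 for Insig1 and 0.034 for Stard4. With DESeq2 size factors, the values were 0.00045 for Mvk and 0.0043 for Nsdhl. DESeq2 gave 0.00045 for Mvk and 0.0056 for Nsdhl. With the replicate block in DESeq2, the value was 0.0021 for Mvk. With the block and no replicate 1, the values were 0.0023 for Mvk, 0.039 for Pmvk, 0.086 for Fdps, 0.11 for Nsdhl, -0.044 for Srebf1 and 0.0031 for Abca1. Leaving out single libraries gave -0.083 to 0.069 for Mvk, -0.23 to 0.00097 for Pmvk, -0.18 to 0.078 for Tm7sf2, -0.074 to 0.11 for Nsdhl, -0.035 to 0.050 for Hsd17b7, -0.051 to 0.13 for Srebf1, -0.030 to 0.083 for Insig1, -0.17 to 0.041 for Insig2 and -0.13 to 0.076 for Abca1. The Idi2 share differed by 0.973 to 1.18 points with 1 library left out and by 2.26 points of summed FPKM; signs permuted within pairs (the replicate block) gave an exact p of 0.25, the smallest possible.

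At these depths a library's floor of 3 counts is 0.273 to 0.439 CPM in Sp9 null and 0.275 to 0.315 CPM in wild type, above all wild type Idi2 values.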
